A study of Mus musculus with 4 samples.

Results

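Formative cells are embryonic stem cells that have left the naive state but have not yet taken up a lineage. In the culture dish they lie between naive cells, which resemble the inner cell mass of the blastocyst, and primed cells, which resemble the epiblast after implantation. The naive state is held by factors such as Nanog, Klf4, Esrrb and Tfcp2l1 and by the cytokine LIF, while Fgf5, a secreted growth factor, and Pou3f1, a POU transcription factor also called Oct6, are marks of the formative epiblast. In this single-cell series of male mouse embryonic stem cells, formative cells were chosen by their own Fgf5 and Pou3f1 counts, as kept cells with at least 5 unique molecular identifiers (UMIs, 1 per captured transcript) of Fgf5 and Pou3f1 combined and with fewer than 5 UMIs of the keratins Krt8 and Krt18. The definition found 3891 formative cells among 31989 kept cells of 41142 barcodes. They were compared, within each library, with 19661 kept cells that had no UMI of Fgf5 or Pou3f1 and fewer than 5 of the keratins, called zero cells here.

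The labels list 2 samples of wild-type E14tg2a.4 cells and 2 samples of Srrm2 heterozygous knockout (hKO) cells, all grown in serum-free medium with LIF, and the labels and the methods give different lengths of that growth. The hKO line carries a gene-trap truncation of 1 Srrm2 allele and is a single clone, CG0630, made in the same E14tg2a.4 recipient cells. The barcodes fall into 4 libraries by their number, and nothing in the labels or files used here ties a library number to a genotype, so no comparison of genotypes was made. Each library is given on its own, with exact 95% intervals that cover counting error only, and no p-value was computed because cells are not replicates. The kept cells of the 4 libraries were 8118, 8514, 7893 and 7464.

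Formative cells were unevenly spread over the libraries. There were 91 in library 1, 1223 in library 2, 411 in library 3 and 2166 in library 4. As shares of kept cells these were 1.12% (exact binomial interval 0.903 to 1.37%), 14.4% (13.6 to 15.1%), 5.21% (4.73 to 5.72%) and 29.0% (28.0 to 30.1%). Zero cells ran the other way, from 87.3% of kept cells in library 1 to 31.1% in library 4. A further 69, 81, 373 and 488 cells reached 5 UMIs of Fgf5 and Pou3f1 but also 5 of the keratins and were therefore not formative cells by the definition. Those keratin-high cells made up 43.1% and 47.6% of all cells with at least 5 Fgf5 and Pou3f1 UMIs in libraries 1 and 3, against 6.21% and 18.4% in libraries 2 and 4.

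**Figure D1:**
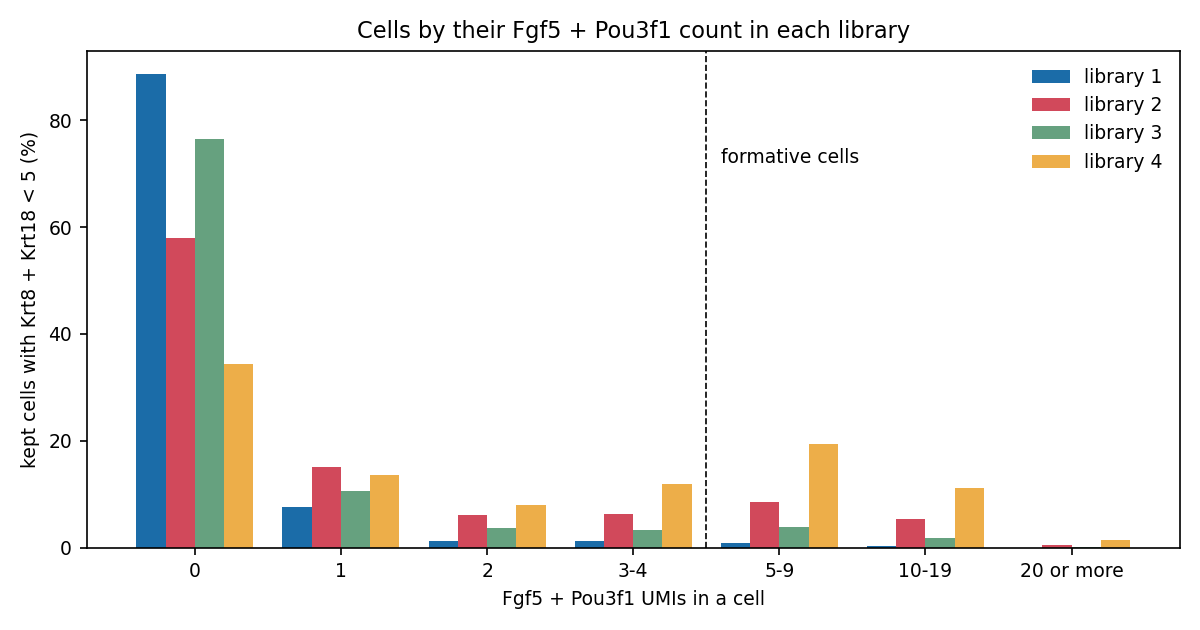
Share of kept cells with Krt8 + Krt18 under 5 UMIs (y axis, %) by the number of Fgf5 + Pou3f1 UMIs in the cell (x axis), in each of the 4 libraries; the dashed line marks the limit of 5 UMIs that defines formative cells. Cells with no UMI make up 88.6% of these cells in library 1 and 34.4% in library 4, and no gap separates the cells on both sides of the limit.

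The label of these cells was only partly borne out by the genes that name them. Pou3f1 (GRCm38 chr4:124656807-124660655, plus strand) supplied 89.5 to 96.6% of the UMIs that selected them. At least 1 Fgf5 (chr5:98254184-98277030, plus strand) UMI was present in 25.3%, 51.3%, 21.4% and 44.9% of the formative cells of libraries 1 to 4, and the highest Fgf5 count in any cell was 11, against 40 for Pou3f1. Their Pou3f1 level was 272, 323, 295 and 339 UMIs per 1000000 UMIs (CPM), and their Fgf5 level was 14.4, 37.7, 10.3 and 33.0 CPM, values that the selection itself set. The cells are therefore Pou3f1-high cells first, and in 3 of the 4 libraries fewer than 50% of them carried an Fgf5 UMI. Fgf5 gave only 39, 1251, 125 and 1850 UMIs over 91, 1223, 411 and 2166 formative cells. At such counts a cell without an Fgf5 UMI may still express Fgf5, so these shares do not give the share of expressing cells. Of the other markers named for them, Dnmt3b and Otx2, neither of which the definition used, both were higher than in zero cells in all 4 libraries, as described below.

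The count limit does not mark a break in the data. Cells with 4 UMIs, just outside, numbered 46, 227, 105 and 368, and cells with 5 UMIs, just inside, numbered 24, 182, 76 and 341. Dnmt3b stood at 320 and 311 CPM on the outer and inner side in library 1, at 670 and 744 in library 2, at 358 and 397 in library 3 and at 769 and 767 in library 4. The summed naive factors stood at 3442 and 2575, 3856 and 3606, 2909 and 2928, and 2710 and 2618 CPM in the same order.

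A definition by raw counts favours deeply captured cells. The median formative cell held 26728, 24307, 26518 and 23371 UMIs in libraries 1 to 4, against 17994, 21210, 18307 and 20019 in zero cells. Cells with over 2 times the median UMIs of their library, among which doublets would fall, were 25.3%, 7.85%, 19.5% and 7.20% of formative cells and 4.26%, 1.69%, 2.71% and 0.947% of zero cells. Mitochondrial genes took 4.09%, 3.88%, 3.81% and 3.33% of formative UMIs and 5.40%, 4.12%, 4.65% and 3.69% of zero-cell UMIs. The barcode sequences of 29 formative cells were also kept in another library, 4 of them as formative cells there.

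Across all genes, 7859 had enough counts in every library to be compared, and a gene was called when each of the 4 libraries showed a ratio of CPM of 1.5-fold or more to the same side. By this size rule 285 genes were higher in formative cells, 3.63% of those compared, and 442 were lower, 5.62%. The median log2 ratio over all compared genes was 0.09, 0.05, 0.09 and 0.04 in libraries 1 to 4. The minimum depth was set on the total of both classes, in which zero cells outnumber formative cells, so genes nearly silent in zero cells could not enter. A filter that weighted both classes equally, chosen after seeing the data, let 8072 genes in and called 474 higher (5.87%) and 362 lower (4.48%). The 189 higher genes it added entered through their level in formative cells, so their direction followed from the filter. In the same way 80 of the 442 lower genes entered the first comparison only through their level in zero cells, and their direction followed from that filter. TMM scaling of the class totals moved the median ratio to -0.17, -0.08, -0.12 and -0.05 and the split to 172 higher and 590 lower. Library 1 held the fewest formative UMIs (2701712, against 12107084 to 56041221 in the others), and without it 11024 genes were compared, 878 of them higher and 667 lower. Against zero cells matched on UMIs, 285 genes were higher and 435 lower, of which 264 and 418 were also called above. With cells over 2 times the median UMIs left out, 6509 genes could be compared, and 213 were higher and 369 lower. At a limit of 2-fold in place of 1.5-fold, 67 genes were higher and 187 lower, and 17 named genes lost their call: Zic2, Zic5, Rbpj, Dppa5a, Lin28a, Fgf4, Tubb3, Dnmt3l, Tdg, Skil, Spry1, Lifr, Il6st, Bcl3, Slc2a1, Hk1 and Ldha. The losses given beside single genes are those at 1.5-fold, apart from Lin28a and Ldha, where the loss at 2-fold is repeated.

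Among the 7859 genes compared, the one with the largest consistent excess was Pim2, a serine/threonine kinase that promotes survival (chrX:7878262-7883432, plus strand). Pim2 stood at 315, 302, 236 and 286 CPM in the formative cells of libraries 1 to 4, against 10.8, 23.0, 19.6 and 37.2 CPM in zero cells. The formative levels were close to each other in all 4 libraries and every one lay above every zero-cell level. Pim2 was picked by its large ratio, and the share of all compared genes without such overlap was not counted. The log2 ratios were 4.87 (4.75 to 4.99), 3.72, 3.59 and 2.94 (2.87 to 3.01). Adgrl2, an adhesion G protein-coupled receptor of the latrophilin family, followed with log2 ratios of 3.06, 2.57, 2.22 and 1.97. The SoxC transcription factors Sox4 and Sox11 both stood among the 12 leading genes. Sox4 was at 96.6, 104, 67.6 and 114 CPM against 16.4, 24.0, 17.1 and 29.2 in zero cells, and Sox11 at 93.3, 106, 79.6 and 97.9 CPM against 6.39, 21.5, 12.8 and 28.0. The other leading genes were Pphln1, part of the HUSH silencing complex, Limd2, the LIM-only gene Lmo4, Dnmt3b, the imprinted growth adaptor Grb10, the Hes family gene Hes6, the Tudor-domain gene Tdrkh and the ankyrin gene Ank2, with log2 ratios of 1.62 to 3.35.

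The equal-weight filter admitted genes through their level in formative cells, so the direction of the genes it added was set by the filter and their values are a description. Apart from Pim2, its 12 leading genes were at no more than 5.43 CPM in the zero cells of any library. Sema6a, a transmembrane semaphorin that acts in cell guidance, was at 34.4, 56.0, 29.1 and 52.1 CPM in formative cells and at 0.475, 2.96, 1.73 and 4.60 CPM in zero cells. Its log2 ratios were 6.18 (5.71 to 6.65), 4.24 (4.07 to 4.42), 4.07 (3.81 to 4.34) and 3.50 (3.30 to 3.70). Enpp2, which encodes the lysophosphatidic acid enzyme autotaxin, was at 70.0, 53.9, 54.3 and 47.4 CPM against 1.37, 2.51, 3.21 and 4.98. Fst, which encodes the activin antagonist follistatin, was at 46.3, 19.7, 28.9 and 16.1 CPM against 1.77, 0.981, 2.41 and 1.64. Car4, a membrane carbonic anhydrase, and Slc39a8, a metal ion transporter, had log2 ratios of 2.82 to 7.36 and 2.81 to 6.09. Gbp2, an interferon-inducible GTPase, was at 14.8 and 15.8 CPM in libraries 1 and 3 but at 2.11 and 2.77 CPM in libraries 2 and 4, so its level in formative cells differed between libraries far more than that of Pim2.

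The genes with the largest consistent deficit included the naive factors Tbx3 and Klf4. Klf4 (chr4:55527143-55532466, minus strand) was at 26.3, 29.8, 25.9 and 15.8 CPM in formative cells and at 179, 137, 144 and 102 CPM in zero cells, log2 ratios of -2.77 (-3.12 to -2.43), -2.20 (-2.30 to -2.11), -2.47 (-2.64 to -2.31) and -2.69 (-2.79 to -2.59). Tbx3, a T-box repressor, was at 11.5, 2.44, 6.94 and 1.14 CPM against 80.2, 15.2, 47.1 and 8.02. Its level in zero cells differed widely between libraries while the ratio did not, at log2 -2.81, -2.64, -2.76 and -2.81. Gjb5 (chr4:127354809-127358181, minus strand), which encodes a connexin of gap-junction channels, was at 5.55, 5.45, 4.13 and 4.46 CPM against 31.9, 26.0, 23.3 and 21.7. Rhox6, Mylpf and Lrrc34 were also among the 12. Pga5, Serpinb6c, Prdm14, Fxyd4 and Sox21 ranked with them but were not compared under the equal-weight filter, so they entered through their level in zero cells and are named as a description only. Rhox6 and Serpinb6c belong to multi-copy families, so reads may be split between copies, and Rhox6 rested on 1 UMI in the formative cells of library 1, where its log2 ratio was -5.43 with an interval of -10.74 to -2.95.

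**Figure D2:**
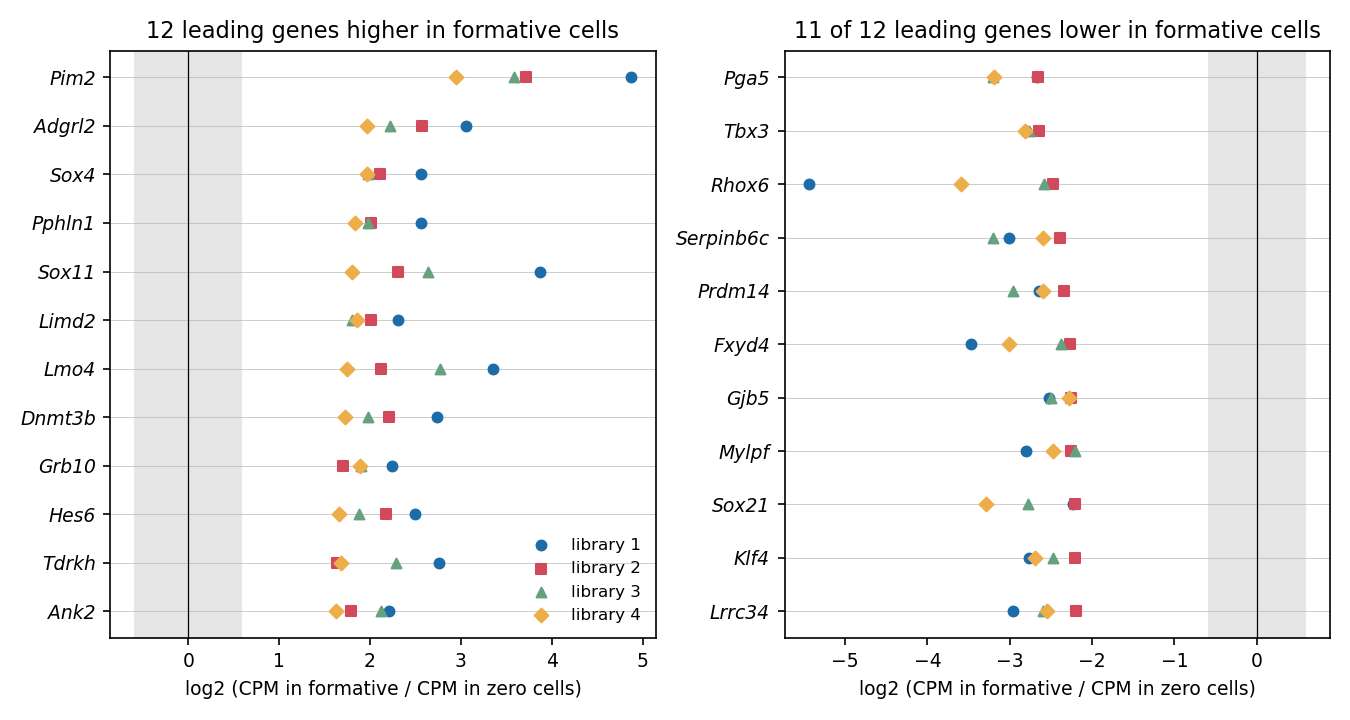
Log2 ratio of CPM in formative over zero cells (x axis) for the 12 leading genes higher and 11 of the 12 leading genes lower in formative cells, 1 marker per library; the grey band spans the 1.5-fold limit on both sides of 0. Pim2 runs from 2.94 to 4.87, and library 1 has the largest ratio for each of the 12 higher genes.

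The formative regulators, a list of 22 transcription factors and other genes known from the formative epiblast without Fgf5 and Pou3f1, were called in part. Of 17 compared, 8 were higher, 1 was lower and 8 were not called, against backgrounds of 3.63% and 5.62%. The list was chosen with earlier results of these data known. The study had also named Dnmt3a, Dnmt3b, Sox4 and Sox11 as markers of a cell cluster in these data. The count is therefore a description and not independent support for the label. Their median log2 ratio was 0.82, 1.03, 0.57 and 0.69. Otx2, the homeodomain factor that directs exit from the naive state (chr14:48657677-48673819, minus strand), was at 60.0, 166, 46.3 and 167 CPM in formative cells and at 23.2, 60.7, 21.5 and 77.4 CPM in zero cells. The zero cells of library 4 thus held more Otx2 than the formative cells of libraries 1 and 3, and only the formative cells of libraries 2 and 4 lay above the zero cells of every library. Within each library the log2 ratio was 1.37 (1.14 to 1.60), 1.46 (1.40 to 1.51), 1.11 (0.97 to 1.24) and 1.11 (1.05 to 1.16). Otx2 was no longer called, with 0.43 in the library nearest 0, when cells high in keratins were let in, nor with the definition applied, keratin limit included, to cells thinned to 10000 UMIs (0.47). Zic2 and Zic5, zinc-finger factors of the epiblast, had log2 ratios of 0.97 to 2.36 and 0.82 to 1.63, of which Zic5 was not called under TMM scaling (0.56 in the library nearest 0). Lin28b, which blocks let-7 maturation, had 1.10 to 1.65. Sox4, Sox11, Dnmt3a and Dnmt3b were the other 4.

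Several well-known members of that list were not called. Etv5, an ETS factor downstream of FGF, was at 68.1, 137, 76.2 and 120 CPM against 73.4, 117, 83.2 and 121, with log2 ratios of -0.13 to 0.23. Tcf15 changed sign between libraries, with -0.42 to 0.33. Foxd3 and Tcf7l1 lay at 0.24 to 0.69 and 0.09 to 0.61. Rbpj, the DNA-binding partner of Notch, was lower, at 91.8, 113, 102 and 126 CPM against 157, 193, 178 and 239. Among the 5 members with too few counts to be compared, Sox3 was at 25.2, 19.1, 22.4 and 20.2 CPM against 1.62, 1.69, 2.85 and 2.57, Lef1 at 18.1, 66.9, 26.8 and 51.5 against 4.73, 16.5, 7.67 and 15.0, and Sall2 at 8.51, 30.1, 9.58 and 27.5 against 0.425, 2.68, 1.08 and 3.81. The depth limit kept out genes low in zero cells, so these levels are a description only, and the remaining members are not given. Summed over the list, formative cells held 1382, 2343, 1399 and 2225 CPM and zero cells 667, 1051, 833 and 1214, log2 ratios of 1.05 (1.00 to 1.10), 1.16 (1.14 to 1.17), 0.75 (0.72 to 0.77) and 0.87 (0.86 to 0.89). Dnmt3b alone made up 396, 966, 398 and 884 CPM of the formative sums.

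The naive factors were lower nearly throughout. Of 18 listed, 17 were compared, 15 were lower and none was higher (14 of 16 with the equal-weight filter, which Prdm14 did not pass), with a median log2 ratio of -2.17, -1.86, -2.15 and -2.13. Over all genes compared, 5.62% were lower and 3.63% higher, and 4.48% were lower with the equal-weight filter. This list too was chosen with earlier results of these data known. Zfp42, the naive marker also called Rex1, was at 114, 192, 121 and 153 CPM in formative cells and at 548, 651, 533 and 673 CPM in zero cells. Nanog was at 66.6, 45.5, 39.3 and 30.3 CPM against 163, 166, 134 and 116, so that its ratio was smaller in library 1 (log2 -1.29, -1.51 to -1.08) than in the others (-1.87, -1.76 and -1.93). Klf2, a Krüppel-like factor, was at 134, 168, 122 and 97.8 CPM against 579, 539, 534 and 415. Esrrb and Tfcp2l1 had log2 ratios of -2.57 to -2.001 and -2.66 to -2.13. In Zfp42, Nanog and Klf2 every formative level lay below every zero-cell level. The naive factor Tbx3 did overlap between libraries, with 11.5 CPM in the formative cells of library 1 and 8.02 in the zero cells of library 4. The share of all compared genes without such overlap was not counted. The 2 members not called were Klf5, at 172, 123, 182 and 127 CPM against 279, 202, 207 and 189, and Gbx2, at log2 -1.11 to -0.24. Summed over the list, formative cells held 2252, 2826, 2570 and 2259 CPM and zero cells 7978, 6352, 7345 and 5724, log2 ratios of -1.82 (-1.86 to -1.79), -1.17 (-1.18 to -1.16), -1.51 (-1.53 to -1.50) and -1.34 (-1.35 to -1.33). Dppa5a, an RNA-binding protein gene of high abundance, made up 5442, 3955, 5086 and 3632 CPM of the zero-cell sums, and its own ratio was smaller than the median of the list in all 4 libraries, at -1.80, -0.94, -1.43 and -1.10.

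The core pluripotency factors did not move together. Pou5f1, which encodes Oct4, was at 841, 840, 682 and 813 CPM in formative cells and at 851, 771, 715 and 741 CPM in zero cells, with log2 ratios of -0.02 (-0.08 to 0.04), 0.12 (0.10 to 0.14), -0.07 (-0.10 to -0.03) and 0.13 (0.11 to 0.15). Sox2 was lower, at 132, 235, 163 and 208 CPM against 442, 470, 381 and 450, with log2 ratios of -1.74, -1.001, -1.23 and -1.12. Of the 12 general pluripotency genes compared, 1 was higher (Lin28a, log2 0.60 to 1.26, not called at a limit of 2-fold, nor with 0.51 under TMM scaling, 0.54 against UMI-matched zero cells, 0.53 after thinning and 0.58 at a limit of 3 UMIs), 3 were lower (Sox2, Fgf4 and Tfap2c) and 8 were not called, with a list median of -0.43, -0.09, -0.38 and -0.22. These counts stand beside 3.63% higher and 5.62% lower over all genes compared. Utf1, Sall4 and Tdgf1 lay within -0.05 and 0.38. Tfap2c, an AP-2 factor, had the largest deficit of them, at 5.92, 10.1, 9.58 and 6.35 CPM against 51.7, 61.1, 42.1 and 50.6.

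**Figure D3:**
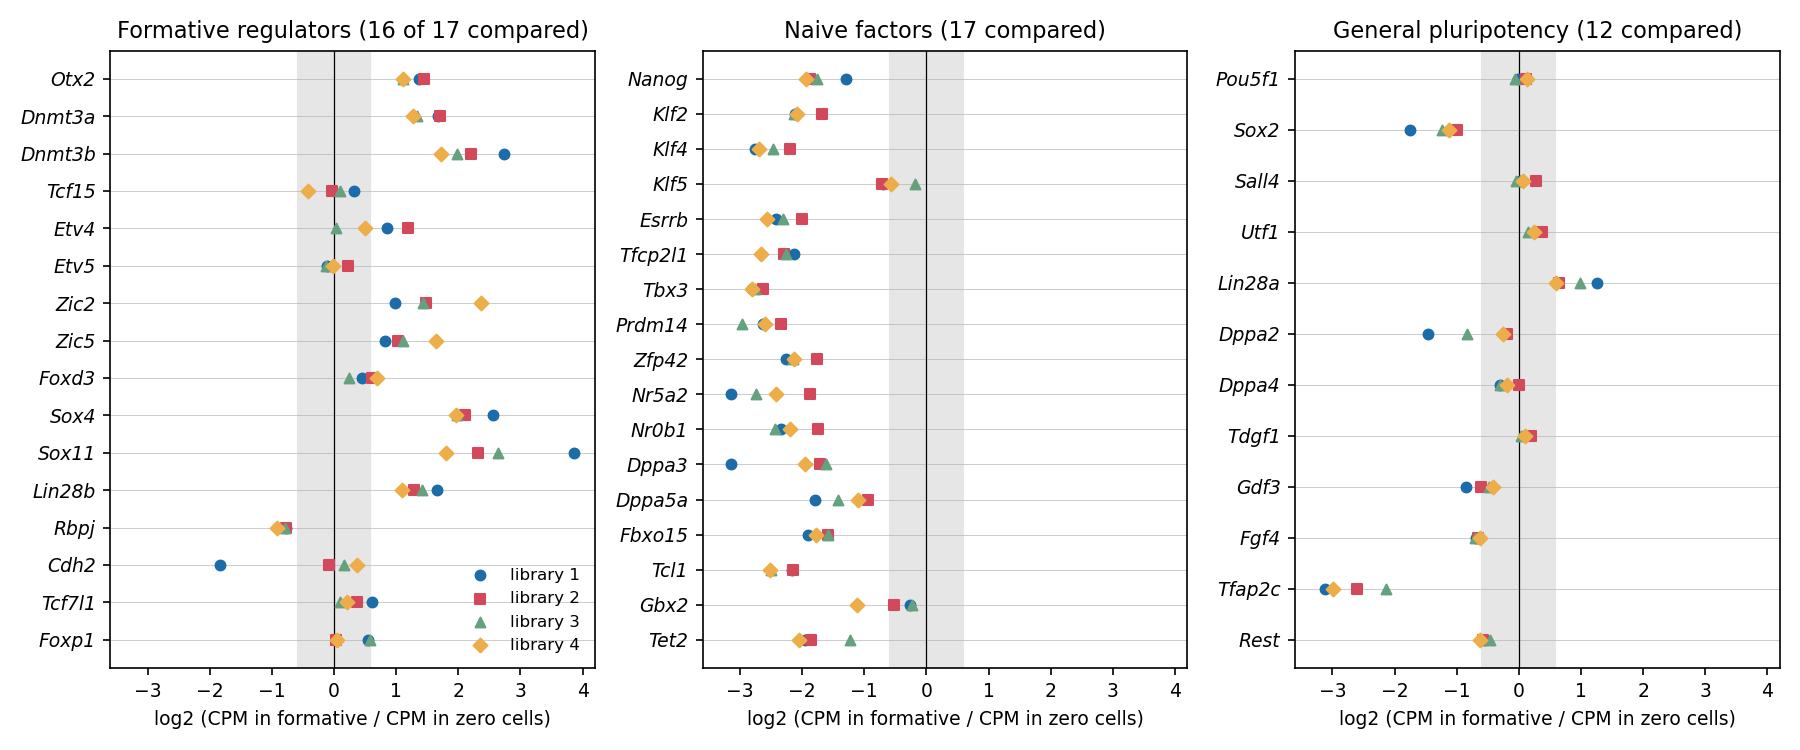
Log2 ratio of CPM in formative over zero cells (x axis) for compared genes of 3 lists (16 of 17 formative regulators, 17 naive factors and 12 general pluripotency genes), 1 marker per library, with the 1.5-fold limit as a grey band. The naive factors lie left of the band apart from Klf5 and Gbx2, Pou5f1 lies within it, and Sox2 lies left of it with -1.001 to -1.74.

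Among the DNA methylation genes, the de novo methyltransferases were higher and their cofactor was lower. Dnmt3b, a de novo methyltransferase (chr2:153649450-153687730, plus strand), was at 396, 966, 398 and 884 CPM against 59.5, 209, 101 and 267, log2 ratios of 2.74 (2.64 to 2.83), 2.21 (2.19 to 2.24), 1.98 (1.93 to 2.03) and 1.73 (1.70 to 1.75). Dnmt3a, the other de novo enzyme, had log2 ratios of 1.27 to 1.71, and the thymine DNA glycosylase Tdg 0.87 to 1.21. Dnmt3l, their catalytically inactive cofactor, was lower, at 35.5, 85.3, 38.4 and 68.6 CPM against 111, 154, 115 and 147. The dioxygenase gene Tet2 was also lower (log2 -2.05 to -1.24), and Tet1 lay between -1.29 and -0.47 without passing the rule. Dnmt1 and Uhrf1, which maintain methylation, lay between -0.27 and -0.02 and between -0.42 and -0.05. In all, 3 of the 8 genes compared were higher and 2 were lower (3 lower without library 2), beside 3.63% and 5.62% of all genes compared, with a median of -0.35, -0.03, -0.18 and -0.15. Without library 2, 483 of the 7859 genes were lower.

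Among signalling genes, those of LIF and FGF were called in part, and the counts of these and the following lists stand beside 3.63% higher and 5.62% lower over all genes compared. Their counts without library 1 stand instead beside 878 higher and 667 lower of 11024 genes. Those without library 4 stand beside 357 higher and 473 lower of 7859. Of the 12 LIF and STAT3 genes, none was higher and 5 were lower: the receptor chains Lifr (log2 -1.51 to -0.76) and Il6st (-1.28 to -0.86), Bcl3, Klf4 and Tfcp2l1. The median of that list was -0.65, -0.79, -0.39 and -0.83, and Stat3 itself lay between -0.41 and -0.07. Of 11 FGF and ERK genes, the feedback inhibitors Spry1 (0.95 to 1.16) and Dusp6 (1.04 to 2.35) were higher, the ligand gene Fgf4 was lower (-0.71 to -0.62, not called with a limit of 3 UMIs, at -0.57), and the median was 0.39, 0.50, 0.28 and 0.24. Without library 1, 4 of 15 were higher. Without cells over 2 times the median UMIs, Spry1 and Dusp6 had too few counts to be compared. Of 6 Wnt and Tcf genes compared, Notum, which encodes an extracellular Wnt deacylase, had ratios of -2.62 to -1.62 but entered only through its level in zero cells, and the other 5 were not called, with a list median of 0.64, 0.38, 0.22 and 0.24. Without library 1, 1 of 10 was higher and 1 lower, and without library 4, 1 of 6 was higher and 1 lower.

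Some genes of the Nodal pathway differed in sign between libraries, although the sum of the list in CPM was higher in all 4, by log2 0.29, 0.03, 0.19 and 0.07. TMM scaling lowers the ratios by more than these values in libraries 2, 3 and 4, so the sign of the sum there depends on the scaling. Lefty1, a secreted Nodal inhibitor, was at 118 and 95 CPM in the formative cells of libraries 1 and 3, above zero cells at 49.8 and 36.4, but at 31.2 and 21.8 CPM in libraries 2 and 4, below zero cells at 80.2 and 38.0. The log2 ratios were 1.25 (1.09 to 1.41), -1.36 (-1.46 to -1.27), 1.38 (1.29 to 1.48) and -0.80 (-0.90 to -0.69). Lefty2, its neighbour on chromosome 1, had 0.66 (0.34 to 0.96), -1.84 (-1.96 to -1.73), 0.66 (0.42 to 0.88) and -1.75 (-1.89 to -1.60). Pim1, a LIF-responsive kinase of the LIF and STAT3 list, had the same pattern with 0.75, -0.91, 0.71 and -0.64. The ligand gene Nodal lay at 0.18, -0.82, -0.11 and -1.07. Of 9 Nodal pathway genes compared, only Skil, an inhibitor of Smad signalling, was called, and it was higher (0.65 to 1.31, but not called in the library nearest 0 under TMM scaling at 0.56, with all barcodes at 0.55 and without the keratin limit at 0.58), with a list median of 0.26, -0.30, 0.17 and -0.18. Without library 1, 2 of 13 were higher, and without library 4, 1 of 9 was higher and 1 lower.

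Libraries 1 and 3, in which the 3 genes were higher, were also the ones with the larger SRF and contractile signal in formative cells. The 17 SRF and contractile genes are the program of the keratin-high cells that the definition leaves out. Their sum was 1378, 806, 1504 and 1095 CPM in formative cells and 613, 654, 714 and 790 CPM in zero cells, log2 ratios of 1.17, 0.30, 1.08 and 0.47. Tagln, an actin-binding protein gene, was at 40.3, 14.7, 106 and 41.3 CPM against 0.737, 3.09, 14.0 and 10.3. Of the 7 genes compared none was called, with a median of 1.36, 0.19, 0.77 and 0.26. Without library 1, where more genes could be compared, 5 of 15 were higher, beside 878 of 11024 over all genes. The keratins themselves, though limited by the definition, were at 18.5, 14.8, 19.2 and 21.6 CPM (Krt8) against 2.94, 3.07, 7.45 and 6.34. The part of these genes in the other results was not tested.

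Of 19 glycolysis genes compared, 3 were higher and 3 were lower, beside 3.63% and 5.62% of all genes, and their sum was 11095, 10959, 10201 and 10901 CPM against 10433, 9700, 9855 and 9544, log2 0.09, 0.18, 0.05 and 0.19. TMM scaling lowers ratios by more than these values in libraries 1 and 3, so the sign of the sum there depends on the scaling. The median of the list was 0.06, 0.16, 0.09 and 0.11. Slc2a1, the glucose transporter Glut1, was at 236, 286, 226 and 332 CPM against 77.2, 143, 89.8 and 161, and the lactate exporter gene Slc16a3 had log2 ratios of 1.14 to 1.78. The lactate dehydrogenase subunits went in opposite directions. Ldha, not called under TMM scaling (0.57 in the library nearest 0) or at a limit of 2-fold, was at 1180, 1723, 1143 and 1669 CPM against 559, 864, 665 and 943, and Ldhb at 161, 124, 101 and 96.6 against 547, 312, 320 and 264. Hk1 and Pfkp were the other genes that were lower, with -1.20 to -0.68 and -2.08 to -1.28, and Hk1 was not called at a limit of 10 UMIs (-0.41) or without the keratin limit (-0.57).

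Of 12 adhesion and cytoskeleton genes compared, the tight-junction gene Cldn7 was higher, at 152, 107, 150 and 160 CPM against 22.9, 22, 32.1 and 54.3, and the other 11 were not called, with a list median of 0.38, 0.37, 0.34 and 0.37. Without library 4, 3 of the 12 were higher and 1 lower, beside 357 and 473 of 7859 over all genes. Without library 1, 4 of 16 were higher, beside 878 of 11024. Cdh1, which encodes E-cadherin, and Epcam lay at 0.51 to 1.38 and 0.51 to 1.28, and Vim at -1.27 to -0.56. None of the 14 S phase and 14 G2/M genes was called, and their medians lay between -0.02 and 0.09 and between 0.10 and 0.26. None of 10 p53 targets was called, with medians of 0.08 to 0.39. None of 9 splicing genes was called, with medians of 0.08 to 0.16, and Srrm2, the gene truncated in the hKO line, was at 432, 589, 278 and 377 CPM in formative cells and at 384, 515, 229 and 339 CPM in zero cells. Its log2 ratios of 0.17 (0.08 to 0.25), 0.19 (0.17 to 0.22), 0.28 (0.23 to 0.33) and 0.16 (0.13 to 0.18) were under the limit, and its level differed more between libraries than between the 2 classes of cells. TMM scaling lowers ratios in library 1 by more than the Srrm2 value there, so its sign in that library depends on the scaling.

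Apart from the neural list, which held Nes, the lists of later lineages summed to at most 66.3 CPM in formative cells. Several lists summed to more in formative than in zero cells. None of 14 primed and streak genes had enough counts to be compared, and their sum was 66.3, 38.2, 50.6 and 30.3 CPM against 11.8, 12.2, 19.9 and 9.50 in zero cells, log2 ratios of 2.49, 1.64, 1.35 and 1.67, and Fst made up 46.3, 19.7, 28.9 and 16.1. Without library 1, 3 of the 14 could be compared and 2 of them were higher, beside 878 of 11024 over all genes. T, the brachyury gene, was at 0.740, 1.51, 2.64 and 0.892 CPM, the first of these on 2 UMIs. With every cell thinned to 5000 UMIs, an Eomes UMI was found in 4.40%, 2.13%, 1.46% and 1.48% of formative cells and in 0.452%, 0.904%, 0.483% and 0.732% of zero cells (15.4%, 9.98%, 5.84% and 7.34% against 1.64%, 3.12%, 1.58% and 3.31% without thinning). All 3 neural genes compared, Pax6, Tubb3 and Ncam1, were lower, with log2 ratios of -1.93 to -1.41, -1.21 to -0.59 and -2.23 to -1.97. Without library 1, and also at an expected count of 5, 5 neural genes were compared, of which 2 were higher and 3 lower. Over all genes, 878 were higher and 667 lower of 11024 without library 1. At an expected count of 5, 639 were higher and 652 lower of 10711. With the equal-weight filter, 4 neural genes were compared, 1 higher and 3 lower. The higher gene had entered through its level in formative cells. Tubb3 was no longer called, by its value in the library nearest 0, with a mean of per-cell CPM (-0.56), with all barcodes (-0.53), after thinning (-0.42), at a limit of 3 UMIs (-0.57) or without the keratin limit (-0.42). Nes, an intermediate filament gene that stem cells also use, was in that list but not compared, at 89.9, 64.0, 85.6 and 84.0 CPM against 2.72, 7.51, 6.98 and 12.6. The 12 neural genes, Nes included, summed to 147, 124, 136 and 152 CPM against 129, 106, 94.8 and 86.8, and these higher sums rested on Nes. The trophectoderm list (1 of 10 compared) summed to 12.8 to 15.5 CPM in formative and 12.6 to 17.7 CPM in zero cells. The primitive endoderm list (2 of 11 compared) summed to 46.6, 47.9, 48.6 and 48.0 CPM against 30.4, 42.2, 28.5 and 43.8. Tead4 of the former and Lama1 of the latter were the members called lower, and both had entered only through their level in zero cells. The fibroblast list (none of 8 compared) summed to 2.59, 9.39, 9.75 and 7.78 CPM against 1.49, 3.75, 3.21 and 3.21. The two-cell-like list had too few counts for any gene to be compared. It was at 0, 0.181, 1.49 and 0.375 CPM in formative cells, where a count of 0 in library 1 allows up to 1.11 CPM, and at 1.33 to 4.26 CPM in zero cells. The defining markers Cdx2 and Gata6 were each at 0 in the formative cells of library 1 and reached 0.391 and 0.248 CPM in the others.

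The naive factors were graded by the count of Fgf5 and Pou3f1. Kept cells with fewer than 5 keratin UMIs before thinning were thinned to 10000 UMIs and sorted by the thinned count. Cells under 10000 UMIs, which were 151, 199, 228 and 274 of all kept cells, could not be thinned and were left out. In libraries 1 to 4, 21, 408, 105 and 744 cells had at least 5 UMIs. This thinned count of 5 is stricter than the 5 UMIs of the definition, which are counted before thinning. The naive factors went, over counts of 0, 1, 2, 3 to 4 and at least 5, from 79.5 to 66, 34.1, 17.1 and 16.5 UMIs per 10000 in library 1, from 62.3 to 50.6, 36.5, 27.3 and 20.3 in library 2, from 72.6 to 51.7, 29.8, 24.1 and 17.2 in library 3, and from 53.8 to 35.8, 25.9, 20.7 and 17.2 in library 4. Cells with a single UMI thus already stood below those with none, and libraries that differed at a count of 0 lay close together at 5 and over. Dnmt3b went over the same bins from 2.29 to 4.23, 7.11, 9.53 and 11.5 in library 2 and from 3.23 to 5.76, 8.18, 8.94 and 10.3 in library 4. In library 1 it went from 0.624 to 1.41, 3.86, 4.02 and 3.90, with little difference from a count of 2 on, and in library 3 from 1.08 to 2.34, 3.76, 4.01 and 4.70. Pou5f1 stayed between 6.78 and 8.86 in every bin of every library.

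**Figure D4:**
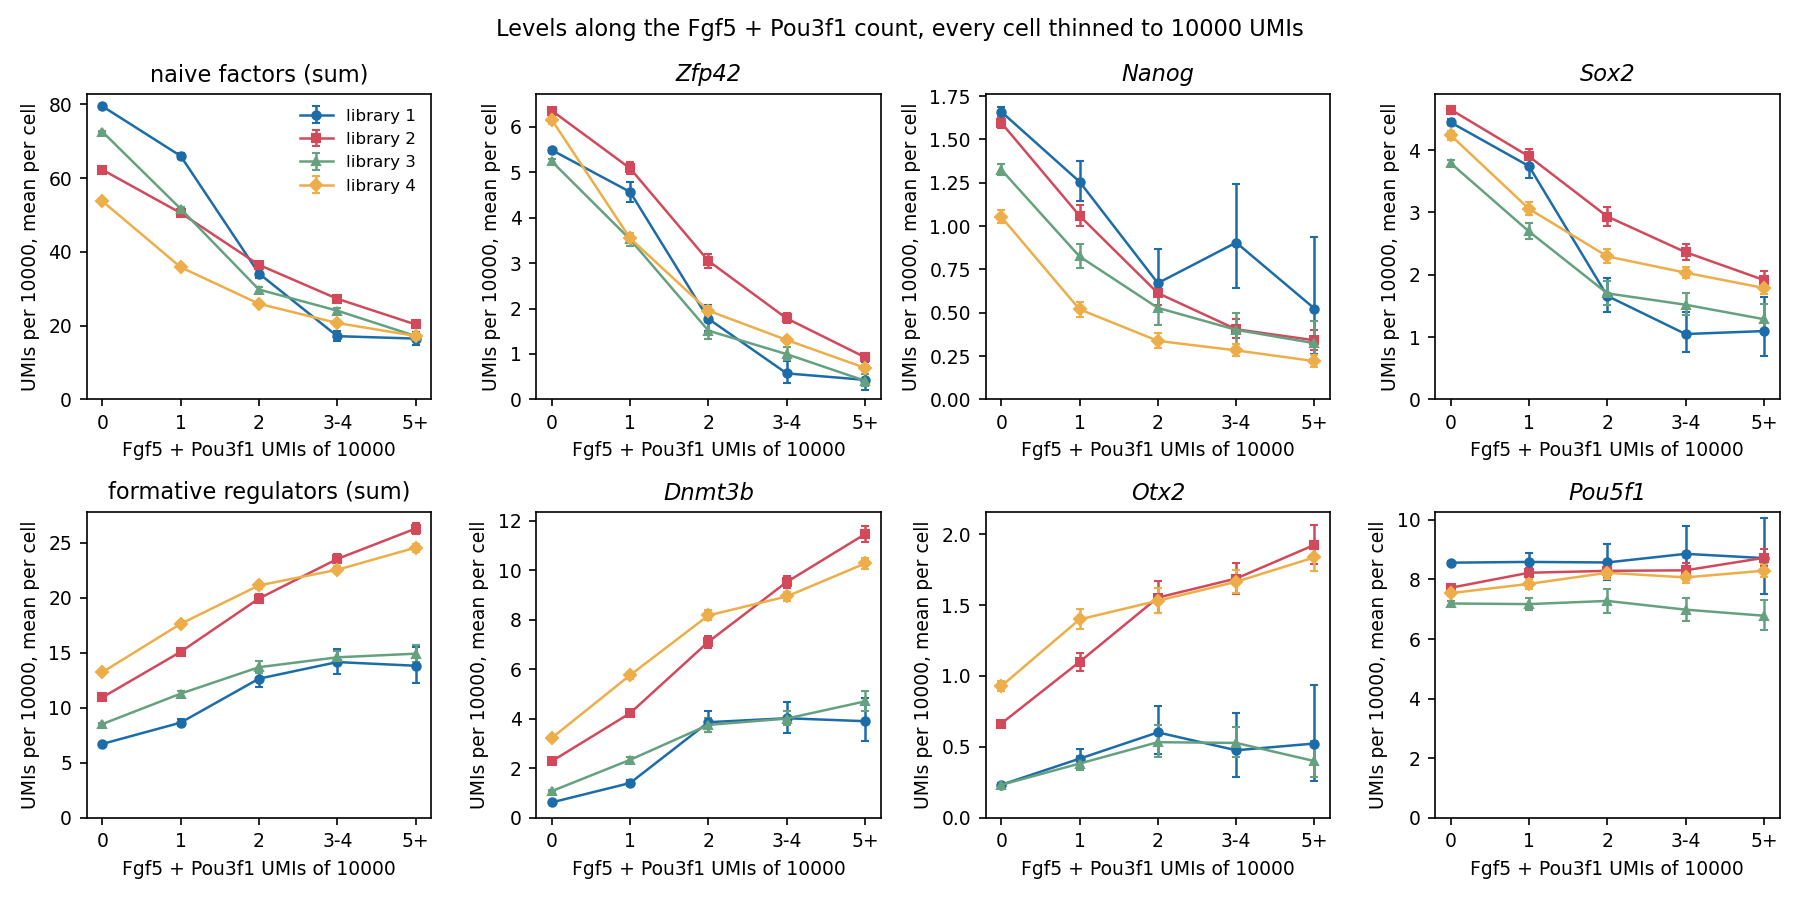
Mean UMIs per cell (y axis) by the thinned Fgf5 + Pou3f1 count (x axis), for 2 list sums and 6 genes in each library. Kept cells with at least 10000 UMIs and Krt8 + Krt18 under 5 UMIs were thinned to 10000 UMIs. Error bars are exact Poisson 95% intervals. Zfp42 goes from 5.24 to 6.36 at a count of 0 down to 0.410 to 0.926 at 5 and over, while Dnmt3b splits into libraries 2 and 4 above libraries 1 and 3.

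At 5000 UMIs per cell, the median formative cell held 6, 12, 9 and 9 UMIs of the naive factors and the median zero cell 40, 31, 37 and 28. The median of the zero cells was reached by 1.10%, 3.11%, 0.487% and 2.49% of formative cells, and 3.30%, 0.736%, 1.95% and 1.57% of formative cells held no naive factor UMI at all. The formative regulators overlapped more, with medians of 6, 12, 7 and 11 in formative and 3, 5, 4 and 6 in zero cells. A Dnmt3b UMI was found in 72.5%, 96.8%, 76.9% and 95.8% of formative cells and in 22.8%, 56.8%, 35.0% and 64.4% of zero cells at that depth (98.5 to 99.9% and 58.1 to 91.6% without thinning). A Klf4 UMI was found in 5.49%, 10.1%, 8.76% and 5.17% of formative and in 55.5%, 46.2%, 46.8% and 35.4% of zero cells (19.3 to 30.9% and 69.6 to 90.02% without thinning), and a Pou5f1 UMI in 96.8 to 98.6% and 96.5 to 98.2%. No empty-droplet profile was used, so background from free RNA was not measured.

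**Figure D5:**
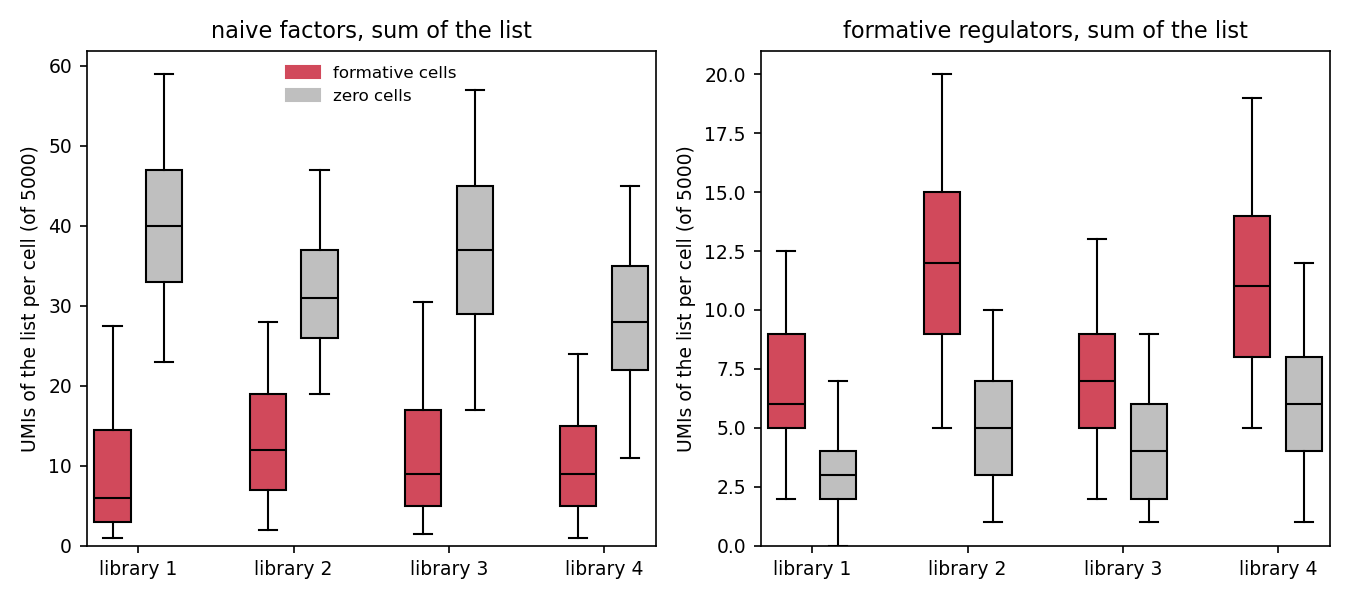
UMIs per cell of the summed naive factors (left) and formative regulators (right) in formative and zero cells of each library, every cell thinned to 5000 UMIs; boxes span the quartiles, the line is the median and whiskers run from the 5th to the 95th percentile of cells. The upper quartile of formative cells (14.5 to 19 UMIs of naive factors) lies below the lower quartile of zero cells (22 to 33).

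Within the formative cells, those with an Fgf5 UMI were compared with those without, a split chosen after seeing the data because the planned split by the leading gene had no library with 50 Fgf5-led cells. Fgf5 counts were low, so a cell without an Fgf5 UMI may still express Fgf5 and the split need not separate distinct cells. Libraries 2, 3 and 4 held at least 50 cells of both kinds: 628 with and 595 without in library 2, 88 and 323 in library 3, and 972 and 1194 in library 4. Of 8153 genes compared in these 3 libraries, 3 were higher (0.0368%) and 8 were lower (0.0981%) in the cells with Fgf5. Among the higher genes were Pkdcc and Stk39, named after their values were seen, with log2 ratios of 0.68 to 1.00 and 0.80 to 1.11. In libraries 2 and 4 alone, which held over 500 cells of each kind, 73 genes were higher (0.611%) and 95 lower (0.796%) of 11940, and 52 and 71 of these had a ratio to the same side in library 3.

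The naive factors were at 2405 against 3284 CPM in library 2, 2295 against 2650 in library 3 and 1937 against 2523 in library 4, log2 ratios of -0.45 (-0.47 to -0.43), -0.21 (-0.25 to -0.17) and -0.38 (-0.40 to -0.37). The difference in library 3 was thus smaller than in the others. Zfp42 was at 151 against 237, 111 against 123 and 119 against 182 CPM, and its interval included 0 in library 3 (-0.33 to 0.04). Klf2 had log2 ratios of -0.79, -0.36 and -0.66, and Dnmt3l of -0.77, -0.52 and -0.72. Nanog did not follow them, at 45.7 against 45.2, 40.9 against 38.9 and 31.8 against 29.1 CPM. Zic2 and Fst had ratios of 0.77, 0.50 and 0.63 and of 1.03, 0.53 and 0.83, so that both passed the limit in libraries 2 and 4 and not in library 3. Dnmt3b was at 1116 against 803, 515 against 364 and 1001 against 787 CPM, under the limit in all 3 libraries.

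The keratin-high cells that also reached 5 Fgf5 and Pou3f1 UMIs differed from formative cells by more than the keratins. Their SRF and contractile sum was higher by log2 1.56, 1.58, 1.93 and 1.45, and Tagln was at 655, 429, 1199 and 556 CPM. The formative regulators were lower in them, by -0.58 (-0.66 to -0.51), -0.27 (-0.31 to -0.23), -0.66 (-0.69 to -0.63) and -0.35 (-0.37 to -0.34), with Otx2 at 18.8, 86.7, 12.4 and 91.7 CPM against 60.0, 166, 46.3 and 167. Not every member followed the sum: Sox11 stood at log2 -0.22 (-0.49 to 0.05), 0.43 (0.27 to 0.58), 0.31 (0.19 to 0.43) and 0.28 (0.20 to 0.35) and Sox4 at -0.13 (-0.39 to 0.13), 0.37 (0.21 to 0.53), 0.48 (0.36 to 0.61) and 0.25 (0.18 to 0.32), so both were higher in the keratin-high cells of libraries 2 to 4. The sum of the naive factors was lower still than in formative cells, by -0.42, -0.63, -0.67 and -0.43. Dppa5a made up 1136.1, 1325.1, 1066.5 and 1191.7 CPM of these keratin-high sums of 1683.1, 1831.5, 1618.9 and 1679.3. The sum therefore does not give the direction of each member. The keratin-high cells were also the deepest, with median UMIs of 37553, 29260, 35609 and 29550, and the part of depth and doublets in this comparison was not tested.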

How the data were processed

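Single-cell libraries were made by the authors with a 10x Genomics 3′ kit from the 2 WT and 2 hKO samples. Per the study's methods and the submitters' processing notes, reads were aligned to mm10 with Cell Ranger 6.1.2, and the 4 libraries were joined with reads subsampled to like depth. The deposited values are raw UMI counts of 32285 genes in 41142 barcodes, as left by Cell Ranger and before the study's filters on UMIs, genes and mitochondrial reads.

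Cells were kept when UMIs and detected genes were each at least the library mean minus 1 SD and mitochondrial UMIs were at most 10%. Doublets were not called. Counts were summed by class and library and scaled to CPM. A gene was compared when its expected count in formative cells, from the level of both classes pooled, was at least 20 in every library. Ratios have exact conditional and shares exact binomial (Clopper-Pearson) 95% intervals. The intervals hold counting error alone. Thinning drew UMIs at random to 5000 or 10000 per cell. No p-value was computed.

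The genes named are Fgf5, Pou3f1, the keratins, Dnmt3b, Otx2, members of 21 lists and the 12 leading genes on each side, ranked by the ratio in the library nearest 0. Outside this rule, and after their values were seen, leading genes of the equal-weight filter and genes higher in cells with Fgf5 were named. Of 280 list entries 1 was not found. Members and lists were chosen with earlier results of these data known, and the equal-weight filter and the split by an Fgf5 UMI, with its limits of 50 and 500 cells, were chosen after seeing the data. Coordinates come from a GENCODE annotation of GRCm38, the assembly of mm10. The call rule was tested on simulated counts for formative over zero cells, where it called 98% of genes changed by a log2 of 1 and none of 7663 unchanged genes. Those counts held counting error alone, with no differences between cells, in depth or in composition. The rate of wrong calls in the real data was therefore not measured. Python 3.11.15, numpy 2.4.6, scipy 1.17.1, pandas 2.3.3 and matplotlib 3.10.9 were used, with edgeR 4.0.16 in R 4.3.3 for TMM factors only. Alternatives changed the scaling, the count limits, the cell filters, the fold and depth limits and the libraries included. Some genes of the lists and rankings are counted but not reported here by name.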

Additional observations from a re-analysis of the deposited data

How the results depend on the processing

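No paired analysis was possible because no library carries a replicate number of the labels by which groups could be paired. Formative and zero cells of the same library were paired throughout as within-library ratios, and no paired test over the 4 libraries was made, since measured values of the same cells chose the classes. No called gene was called to the other side under any alternative, and every leading gene that could still be compared kept its call. A change of sign short of such a call was looked for in named genes only. Of the values of named genes, 1153 kept their call, 36 (18 genes) lost it and 72 (39 genes) could no longer be compared. The 1153 include settings that could not remove a call, since leaving out 1 library or lowering the expected count to 5 can only add calls. Changes of the fold limit, the depth limit or the libraries used the same ratios and could not turn a call. With 1 library left out, the list sums below could likewise only stay or move away from 0. The 285 genes higher became 172 under TMM scaling, 565 at a limit of 10 UMIs (3 libraries), 474 without the keratin limit, 639 and 59 at expected counts of 5 and 100, 67 at 2-fold and 474 with the equal-weight filter, and ran from 305 to 878 when 1 library was left out. The 442 genes lower became 174 at an expected count of 100 and 187 at 2-fold, and ran from 473 to 667 when 1 library was left out. Both highest values came without library 1, which had the fewest formative cells, and with 11024 in place of 7859 genes compared. Formative cells numbered 1440 after thinning to 10000 UMIs, where the keratin limit was also applied to thinned counts. They numbered 1525 at a limit of 10 UMIs, and in both settings library 1 had too few to be compared. The naive factor sum, -1.17 in the library nearest 0, was -1.30 under TMM scaling, -1.27 as a mean of per-cell CPM, -1.64 after thinning, -0.99 and -1.38 at limits of 3 and 10 UMIs, -1.21 without the keratin limit, -1.15 with all barcodes, -1.20 at a mitochondrial limit of 5%, -1.26 without cells over 2 times the median UMIs and -1.34 to -1.17 with 1 library left out. The formative regulator sum, 0.75, was correspondingly 0.53 under TMM scaling, 0.78 per cell, 0.70 after thinning, 0.81 at a limit of 10 UMIs, 0.42 without the keratin limit, 0.80 without cells over 2 times the median and 0.75 to 0.87 with 1 library left out. Against zero cells matched on UMIs, 285 genes were higher and 435 lower. The cause of these shifts was not tested beyond the numbers of genes, cells and libraries given. Depth limits library 1 most, where 3 counts in formative cells equal 1.11 CPM.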
